A study of Mus musculus with 6 samples.

Results

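The genes described here encode tumor necrosis factor (TNF), the lymphotoxins, the cytokine RANKL, their receptors and a feedback inhibitor. They are Tnf, Tnfrsf1a, Tnfrsf1b, Lta, Ltb, Tnfsf11, Tnfrsf11a, Tnfrsf11b, Tnfsf15 and Tnfaip3. They were taken by symbol, with earlier results of these data known. All 10 were found among the 54532 genes of the deposited count table and passed the filter on low counts, which left 16861 genes. The data are poly-A RNA-seq counts from the distal colon of mice, with 6 libraries, 3 of them labelled wild-type (WT 1 to WT 3) and 3 Itgbl1 -/- (KO 1 to KO 3). Every animal had received dextran sulfate sodium (DSS), which damages the lining of the colon and brings on colitis, at 3% in the drinking water for 7 days, so there is no untreated group. Strain, age and sex, and the way the allele was made, are not given in the labels used here. The labels number the samples of a group without saying that each came from its own animal, so a p-value here weighs only sample-to-sample spread, which may be technical.

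TNF is released by activated macrophages and T cells and binds a pair of receptors, the broadly expressed TNFR1 and the more restricted TNFR2. Both signal to the transcription factor NF-kB, and TNFR1 can also lead to cell death. NF-kB in turn induces Tnfaip3, whose product A20 shuts the pathway off. RANKL acts through its receptor RANK and is neutralised by the soluble decoy receptor osteoprotegerin. Known best for driving osteoclasts in bone, it also directs lymphoid tissue and the M cells that sample antigen in the gut. In bulk tissue, fewer cells of a type and less RNA per cell cannot be told apart.

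Gene counts totalled 13326970 to 18321389 per library. The targeted gene Itgbl1 (integrin beta-like 1) did not bear out the labels, with 5 to 19 reads under the wild-type label and 4 to 12 under the knockout label (log2 ratio -0.19 ± 0.77 SE, adjusted p = 0.9). The table gives 1 count for the gene, so loss of a few exons could go unseen, and the labels do not describe the deleted part. Directions below therefore compare the labels. The tissue label was borne out in the wild-type libraries, where 7 colon markers summed to 3133 to 3638 CPM (counts scaled to a common library total). The sums were 319.6, 1808 and 64.0 CPM in KO 1 to KO 3. Krt20 and Cdx2 of this list are also among the epithelial markers given next. Under the knockout label Hoxa13 ranged from 17.1 CPM (KO 3) to 25.3 CPM (KO 2), and Hoxd13 from 26.2 CPM (KO 3) to 45.2 CPM (KO 2). Every wild-type library was higher, with at least 42.1 CPM of Hoxa13 and 62.9 CPM of Hoxd13. The 9 epithelial markers stood at 6.63%, 43.6% and 0.31% of the wild-type mean in KO 1, KO 2 and KO 3. The libraries labelled knockout thus differed widely among themselves, with KO 3 lowest.

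RANKL and osteoprotegerin transcripts were higher, and RANK and Tnfsf15 transcripts lower, in every library labelled knockout than in any wild-type library. The libraries of the labels were likewise without overlap for 32.3% of all genes tested, in either direction. By edgeR's quasi-likelihood test over all genes 0 of the 10 members had an adjusted p under 0.05. These 4 of the 10 had an unadjusted p under 0.05, against 24.1% of all genes. Tnfsf15, counted among them, passed the filter on low counts only through the wild-type libraries, where it was higher. DESeq2 called 3 of the 10, against 10.5% of the 19370 genes that it gave an adjusted p. Limma-voom with quality weights called 2, against 8.27% of the 16861 genes. The sequences before the RefSeq start sites of Tnfsf11 and Tnfrsf11a are shown because the ligand was higher and its receptor lower in each library labelled knockout, and that of Tnf because its product names the pathway. Each run covers 250 bases before the RefSeq start, 5′ to 3′, on GRCm38.p6, where 9 of the 10 members were matched. The genes as counted can begin further upstream: of the 250 bases, 0 lay within the counted gene for Tnfsf11 and Tnf and 5 for Tnfrsf11a. Capitals mark matches, on either strand, to the kappa B motif bound by NF-kB, the AP-1 motif TGANTCA and the GC box GGGCGG.
Tnfsf11, chr14:78308044-78308293, minus strand: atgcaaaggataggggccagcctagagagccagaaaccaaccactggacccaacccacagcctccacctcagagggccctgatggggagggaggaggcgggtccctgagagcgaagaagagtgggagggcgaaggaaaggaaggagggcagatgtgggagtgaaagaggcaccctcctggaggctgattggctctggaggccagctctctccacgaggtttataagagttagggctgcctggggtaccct
Tnfrsf11a, chr1:105780473-105780722, plus strand: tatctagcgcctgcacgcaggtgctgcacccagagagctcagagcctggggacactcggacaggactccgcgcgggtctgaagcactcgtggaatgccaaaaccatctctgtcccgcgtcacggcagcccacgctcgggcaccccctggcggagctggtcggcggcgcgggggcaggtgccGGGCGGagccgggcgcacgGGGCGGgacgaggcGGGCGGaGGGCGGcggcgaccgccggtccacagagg
Tnf, chr17:35202008-35202257, minus strand: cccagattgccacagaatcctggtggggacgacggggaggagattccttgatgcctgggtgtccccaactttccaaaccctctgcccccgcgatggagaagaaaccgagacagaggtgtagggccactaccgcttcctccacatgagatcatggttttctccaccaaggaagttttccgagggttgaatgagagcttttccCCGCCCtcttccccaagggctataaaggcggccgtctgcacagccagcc
Tnfrsf11a had 4 GC boxes between -69 and -24, counted from the start with -1 as the base before it, and neither of the other motifs. Tnf had a GC box at -49 to -44 alone, and the Tnfsf11 window held no match. Of 32841 such windows in the table, 7.25% held a kappa B match, 6.75% an AP-1 match and 32.7% a GC box. Among the windows not shown, Tnfrsf1b had GC boxes alone and Lta none of the 3 motifs, both with 0 bases within the counted gene. For the other 4 members the RefSeq start lay inside the gene as counted. Of the 250 bases, 54 for Tnfsf15, 68 for Ltb, 247 for Tnfaip3 and 250 for Tnfrsf1a were part of the counted gene. These windows are not read as promoters here. The Ltb window held a kappa B match at -87 to -78 and a Tnfaip3 window matches to all 3 motifs, while those of Tnfsf15 and Tnfrsf1a held none. A match describes the letters of the window only, and its lack says nothing about sites elsewhere.

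Tnfsf11 (ENSMUSG00000022015, chromosome 14, 78277445 to 78308043, minus strand, GRCm38) encodes RANKL. It had CPM values of 6.54, 0.57 and 3.72 in WT 1 to WT 3, and of 32.9, 13.8 and 33.7 in KO 1 to KO 3. The lowest library labelled knockout, KO 2, was above the highest wild-type library, WT 1, and WT 2 held only 9 reads. The log2 ratio was 2.89 ± 0.80 (SE), a 7.40-fold difference with a 95% interval of 1.99 to 27.5 (adjusted p = 0.115). DESeq2 called it higher (adjusted p = 0.00406), as did limma-voom with quality weights (0.0347). Over 14 alternatives the log2 ratio was 2.34 to 3.60 and the adjusted p 0.00406 to 0.309.

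Tnfrsf11b (ENSMUSG00000063727, chromosome 15, 54250619 to 54278484, minus strand) encodes osteoprotegerin. It had CPM values of 10.6, 3.35 and 4.89 in WT 1 to WT 3, and of 18.4, 11.0 and 26.2 in KO 1 to KO 3. The groups were separated by a narrow margin, since KO 2 lay just above WT 1. The log2 ratio was 1.56 ± 0.53 (SE), a 2.95-fold difference with a 95% interval of 1.24 to 6.99 (adjusted p = 0.149), and none of 15 alternatives called it.

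Tnfrsf11a (ENSMUSG00000026321, chromosome 1, 105780718 to 105847981, plus strand) encodes RANK and went the other way from its ligand. It had CPM values of 62.3, 121.2 and 87.1 in WT 1 to WT 3, and of 17.0, 17.9 and 27.4 in KO 1 to KO 3. The 3 libraries labelled knockout lay close together, at 313 to 352 reads against 1049 to 1916. The log2 ratio was -2.12 ± 0.34 (SE), 4.35-fold lower, and the 95% interval of the ratio was 0.132 to 0.401 (adjusted p = 0.094). It was called lower by DESeq2 (adjusted p = 5.89e-05), by limma-voom with quality weights (0.0249), without KO 2 (0.0339) and with no filter on low counts (0.0346), and by 4 of 15 alternatives in all. Across those alternatives its log2 ratio was -2.39 to -1.88.

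Ligand reads exceeded decoy reads in each library labelled knockout and fell short of them in each wild-type library. Reads are not corrected for gene length, 2236 bases for Tnfsf11 and 2818 for Tnfrsf11b. As TPM (counts per gene length scaled to a common total) the order held in every library. WT 3 was then near parity, at 4.49 TPM for Tnfsf11 and 4.69 TPM for Tnfrsf11b. Tnfsf11 reads per Tnfrsf11b read were 0.619, 0.178 and 0.76 in WT 1 to WT 3 and 1.78, 1.25 and 1.29 in KO 1 to KO 3. This ratio does not depend on library scaling. Its log2 mean was -1.19 ± 1.14 (SD, n = 3) over WT 1 to WT 3 and 0.51 ± 0.28 (SD, n = 3) over KO 1 to KO 3. The difference of 1.70 gave p = 0.1 in a two-sided exact permutation test, the smallest that 3 libraries against 3 allow. WT 2, with its 9 Tnfsf11 reads, was the lowest, and without it the difference was 1.05.

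**Figure D1:**
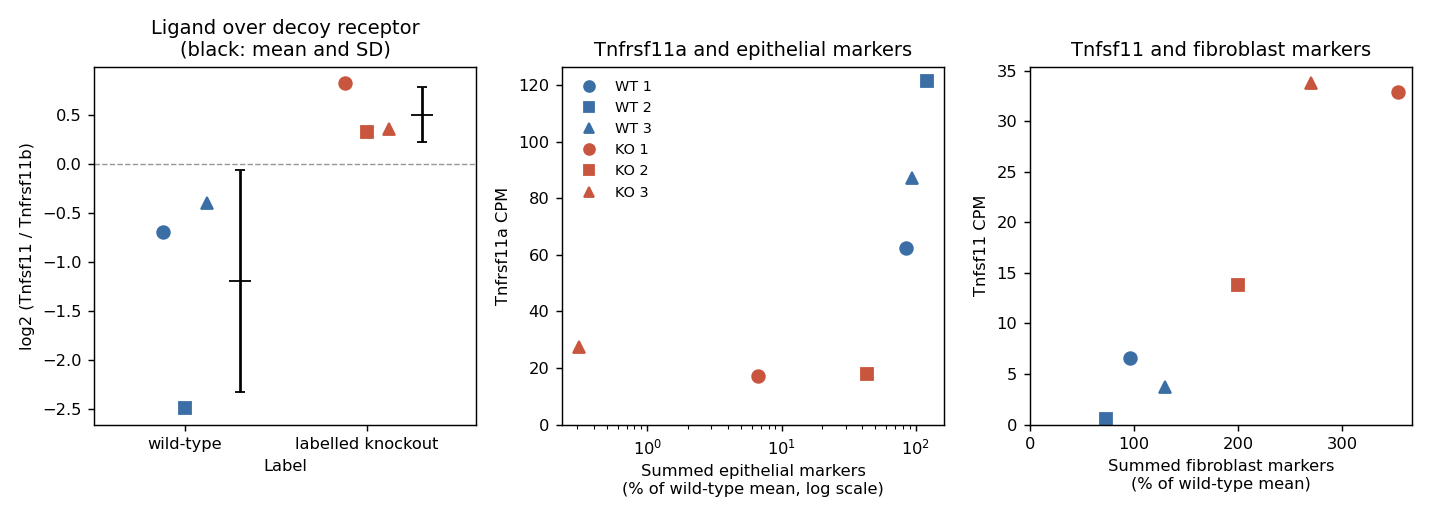
Left, log2 of Tnfsf11 over Tnfrsf11b reads (vertical axis) by label, with the mean and SD in black. The wild-type libraries lie below 0 and those labelled knockout above it. Middle, Tnfrsf11a in CPM against summed epithelial markers as a percentage of the wild-type mean on a log axis: KO 3 has the lowest marker sum at 0.31% and Tnfrsf11a at 27.4 CPM. Right, Tnfsf11 in CPM against summed fibroblast markers as a percentage of the wild-type mean: libraries labelled knockout are higher in both.

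Markers of several cell types also differed between the labels. Tnfrsf11a was lower along with epithelial markers, of which 8 of 9 were lower without overlap and none was at 0. The epithelial sum was 85.1%, 121.7% and 93.2% of the wild-type mean in WT 1 to WT 3, with Tnfrsf11a at 62.3, 121.2 and 87.1 CPM. In KO 1 to KO 3 the sum was 6.63%, 43.6% and 0.31%, with Tnfrsf11a at 17.0, 17.9 and 27.4 CPM. Tnfsf11 and Tnfrsf11b were higher along with the 7 fibroblast markers, whose sums were 1390 to 2464 CPM under the wild-type label and 3791 to 6692 CPM under the knockout label, 4 of them without overlap. The part of either marker list in these results was not tested. T cells are another source of RANKL. Their markers summed to 56.9 to 103.4 CPM under the wild-type label and 49.7 to 88.8 CPM under the knockout label, with 0 of 7 separated. The 5 osteoblast markers summed to 9.18 to 17.2 CPM under the wild-type label and 14.5 to 33.5 CPM under the knockout label. All 3 of them that were tested were positive and 1, Runx2, did not overlap, while Ibsp was at 0 in all 6 libraries and Sp7 at 0.247 CPM at most. The part of T cells or osteoblasts in the Tnfsf11 and Tnfrsf11b values was not tested.

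Tnfsf15 (ENSMUSG00000050395, chromosome 4, 63727084 to 63745113, minus strand) encodes TL1A, a ligand that costimulates T cells and has been linked to inflammatory bowel disease. It had CPM values of 2.02, 2.21 and 1.77 in WT 1 to WT 3, and of 0.395, 0.286 and 0.311 in KO 1 to KO 3. Both groups were tight and far apart, but the counts were small, with 30 to 35 reads against 4 to 8. The log2 ratio was -2.56 ± 0.50 (SE), 5.91-fold lower, and the 95% interval of the ratio was 0.0745 to 0.384 (adjusted p = 0.094). Only the wild-type libraries carried this gene past the filter on low counts. DESeq2 called it lower (adjusted p = 0.00976), as did the fit without KO 2 (0.0495), while the other 12 alternatives that could be run did not.

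Tnf itself overlapped between the labels. The gene (ENSMUSG00000024401, chromosome 17, 35199381 to 35202007, minus strand) had CPM values of 34.5, 6.58 and 15.5 in WT 1 to WT 3, and of 6.67, 24.8 and 7.69 in KO 1 to KO 3. WT 1 and KO 2 were the high libraries of their labels, and the wild-type range contained all 3 libraries labelled knockout. The log2 ratio was -0.53 ± 0.72 (SE), and the 95% interval of the ratio, 0.215 to 2.24, leaves room for a difference in either direction (adjusted p = 0.678).

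Lta and Ltb lie beside Tnf within 10913 bases, with gaps of 1157 bases between Tnf and Lta and 3060 bases between Ltb and Tnf. Their products, lymphotoxin alpha and beta, form the heterotrimer that organises lymphoid tissue through the lymphotoxin beta receptor. Lta (ENSMUSG00000024402, chromosome 17, 35203165 to 35205351, minus strand) had 10 to 50 reads per library. It had CPM values of 2.97, 0.759 and 1.3 in WT 1 to WT 3, and of 1.09, 1.6 and 0.777 in KO 1 to KO 3 (log2 ratio -0.53 ± 0.65 SE, adjusted p = 0.641). Ltb (ENSMUSG00000024399, chromosome 17, 35194439 to 35196320, plus strand) had CPM values of 39.7, 17.0 and 26.5 in WT 1 to WT 3, and of 28.0, 26.0 and 13.2 in KO 1 to KO 3 (log2 ratio -0.31 ± 0.42 SE, adjusted p = 0.675). For all 3 genes of the locus the highest library was WT 1, and without WT 1 the log2 ratios were 0.24 for Tnf, 0.15 for Lta and 0.014 for Ltb. B cell markers were likewise highest in WT 1, at 246.7 CPM against 63.1 CPM in WT 2, and ranged from 105.4 to 218.3 CPM under the knockout label. Macrophage and monocyte markers were at 2139 CPM in WT 1 and 797.3 CPM in WT 2, and at 1032 to 1844 CPM under the knockout label. The part of these cells in the 3 values was not tested.

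The TNF receptors had the highest mean levels per transcript length of the members in the wild-type libraries, though Tnfrsf1b overlapped there with Tnfaip3. Tnfrsf1a (ENSMUSG00000030341, chromosome 6, 125349362 to 125362484, plus strand), encoding TNFR1, had CPM values of 339.5, 155.9 and 278.5 in WT 1 to WT 3, and of 370.1, 308.7 and 424.9 in KO 1 to KO 3. The groups overlapped between KO 2 and WT 1 (log2 ratio 0.51 ± 0.38 SE, adjusted p = 0.435). Tnfrsf1b (ENSMUSG00000028599, chromosome 4, 145213463 to 145246870, minus strand), encoding TNFR2, had CPM values of 296.5, 65.1 and 169.4 in WT 1 to WT 3, and of 133.8, 132.9 and 74.1 in KO 1 to KO 3. Here the wild-type libraries spanned the whole range of those labelled knockout (log2 ratio -0.64 ± 0.55 SE, adjusted p = 0.501). Tnfrsf1b reads per Tnfrsf1a read were 0.873, 0.417 and 0.608 in WT 1 to WT 3 and 0.362, 0.43 and 0.175 in KO 1 to KO 3. The log2 difference of this ratio was -1.01, with p = 0.2 in a two-sided exact permutation test.

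Tnfaip3 (ENSMUSG00000019850, chromosome 10, 19000910 to 19015657, minus strand) was high in a single library. CPM values were 265.3, 121.6 and 162.3 in WT 1 to WT 3, and of 189.6, 173.4 and 558.0 in KO 1 to KO 3. KO 1 and KO 2 lay within the wild-type range and KO 3 above it (log2 ratio 0.75 ± 0.55 SE, adjusted p = 0.436). Without KO 3 the log2 ratio was -0.036.

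**Figure D2:**
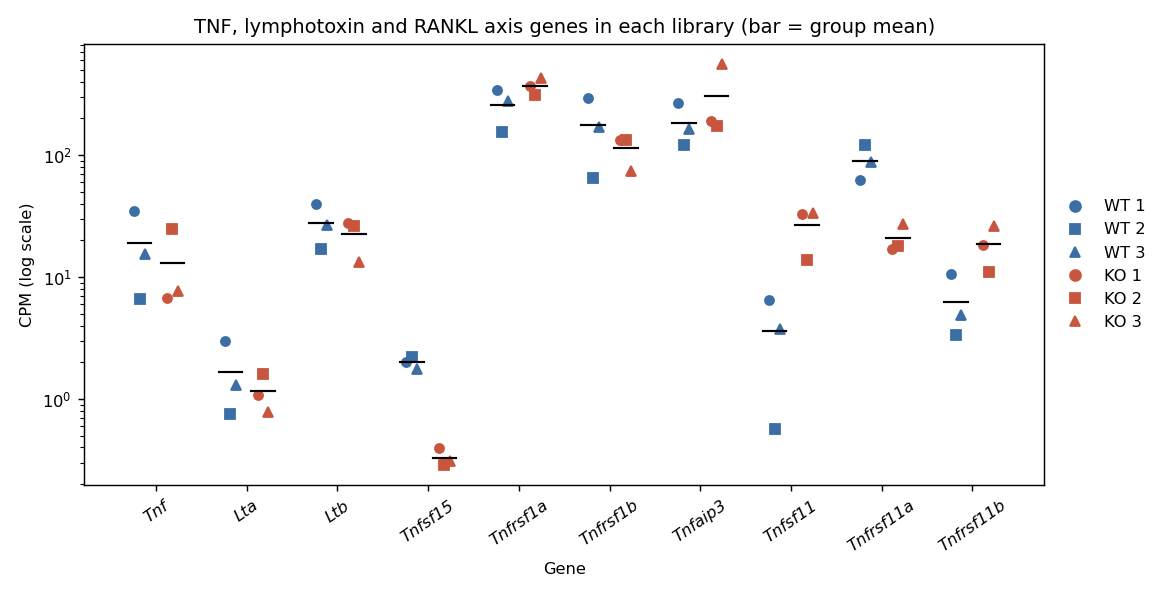
CPM of each gene (log axis) in the 6 libraries, wild-type in blue and labelled knockout in red, with a bar at each group mean. Tnfsf11 and Tnfrsf11b are higher and Tnfrsf11a and Tnfsf15 lower in all 3 libraries labelled knockout, and the other 6 genes overlap between the labels.

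The members' counts are set against those of all genes tested. By edgeR's quasi-likelihood test 0 of 10 had an adjusted p under 0.05, against 0.0% of all genes. At an unadjusted p under 0.05 there were 2 higher and 2 lower members, 4 of 10, against 24.1% of all genes (11.8% higher and 12.3% lower). The same 4 members were those whose libraries did not overlap between the labels, as was so for 32.3% of all genes (15.0% higher and 17.3% lower). Of the 2 lower members, Tnfsf15 passed the filter on low counts only through the wild-type libraries, so its place in these counts is not independent of its direction. The median log2 ratio was -0.42 for the members and 0.061 for all genes tested. With DESeq2, 3 members passed against 10.5% of the 19370 genes that it gave an adjusted p. With limma-voom and quality weights 2 passed against 8.27%, without KO 2 it was 2 against 10.4%, and with no filter 1 against 0.622%. Each of these shares is of the genes tested in that fit. A fit with the replicate number as a block passed 0 members against 0.0178% of all genes.

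**Figure D3:**
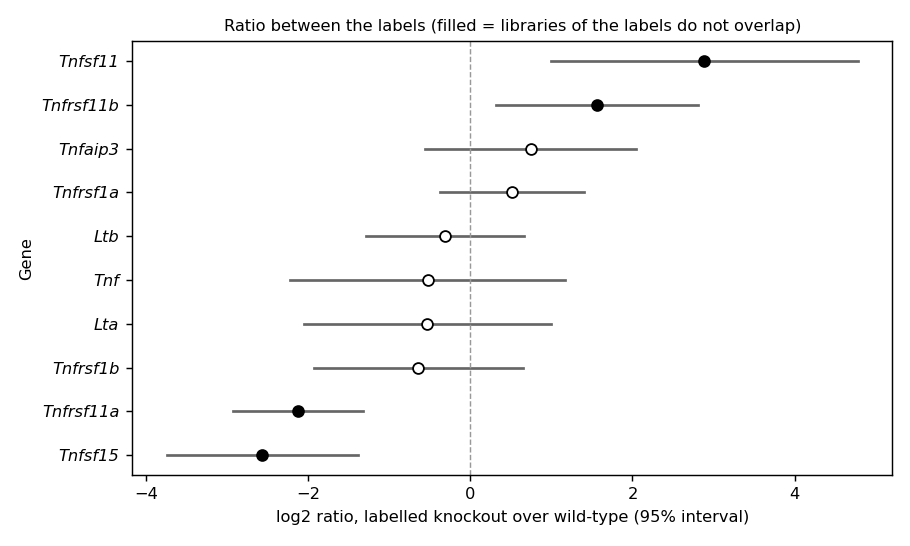
Log2 ratio of the libraries labelled knockout over wild-type for each gene, with its 95% interval from the quasi-likelihood fit. Filled points are the 4 genes whose libraries do not overlap between the labels, and the intervals of the 6 open points cross 0.

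Per transcript length, the order of the members differed between the labels. In TPM, counts per gene length scaled to a common total, under the wild-type label the means were 247.7 ± 86.8 (SD, n = 3) for Tnfrsf1a, 114.2 ± 69.6 for Tnfrsf1b, 62.5 ± 22.1 for Tnfaip3, 45.2 ± 16.8 for Ltb, 37.8 ± 12.8 for Tnfrsf11a and 28.1 ± 19.7 for Tnf. Tnfrsf11b followed at 5.45 ± 2.98, then Tnfsf11 at 3.97 ± 3.12, Lta at 2.96 ± 1.86 and Tnfsf15 at 1.49 ± 0.12. Neighbours in this order overlapped over the libraries except Tnf and Tnfrsf11b. Under the knockout label Tnfsf11 stood between Ltb and Tnf at 31.6 ± 16.7 TPM and Tnfrsf11a at 8.70 ± 1.5 TPM, below Tnfrsf11b at 16.8 ± 6.68 TPM. There the neighbours Tnfrsf1a and Tnfaip3, Tnfrsf11a and Lta, and Lta and Tnfsf15 did not overlap, and the others did. RANK transcripts were thus above RANKL transcripts in each wild-type library, at 24.2, 49.8 and 39.3 against 6.80, 0.626 and 4.49 TPM. They were below them in each library labelled knockout, at 9.22, 7.00 and 9.87 against 47.7, 14.4 and 32.6 TPM.

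Other ligands and receptors of the superfamily were mixed. Of 13 further ligand genes 10 were tested, 2 higher and 2 lower at an unadjusted p under 0.05 (median log2 ratio 0.55), and none passed the adjusted threshold. Of all genes, 11.8% were higher and 12.3% lower at that level, and the counts of the lists below stand against the same shares. The higher ligand genes numbered 4 without WT 1 or with a replicate block, and 1 without WT 2, WT 3 or KO 2, with RLE scaling or with no filter. Tnfsf10, which encodes the death ligand TRAIL, had CPM values of 60.2, 51.3 and 123.2 in WT 1 to WT 3, and of 11.1, 28.4 and 8.24 in KO 1 to KO 3 (log2 ratio -2.30 ± 0.57 SE, adjusted p = 0.103). Tnfsf13, which encodes the plasma cell survival factor APRIL, was at -2.61 on the log2 scale, against 1.08 for Tnfsf12 (TWEAK) and 2.16 for Tnfsf9 (4-1BB ligand). Tnfsf13 was low under the knockout label, at 0.494, 1.89 and 0.544 CPM in KO 1 to KO 3. With at least 10 reads in every library the lower count of ligand genes was 1. Of 24 further receptor genes 23 were tested, 3 higher and 3 lower at an unadjusted p under 0.05 (median 0.55), shares close to those of all genes, and none passed the adjusted threshold. Without WT 2 or without KO 3, 1 was higher. Tnfrsf9, the 4-1BB costimulatory receptor gene, had CPM values of 9.86, 1.77 and 6.31 in WT 1 to WT 3, and of 29.6, 22.0 and 33.1 in KO 1 to KO 3 (log2 ratio 2.23 ± 0.58 SE, adjusted p = 0.108). Both members of the 4-1BB ligand and receptor pair were thus among the 4 genes with the smallest p of their lists, although Tnfsf9 overlapped between the labels. Tnfrsf14 (HVEM), a receptor for LIGHT and lymphotoxin alpha, was at -1.69, Tnfrsf21 (DR6) at -1.22 and Tnfrsf8 (CD30) at -2.48.

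Inside the cell, no adaptor or NF-kB gene passed the adjusted threshold. Of 23 adaptor and kinase genes, 1 was higher and 3 lower at an unadjusted p under 0.05 (median -0.051). The higher count was 0 without WT 2, WT 3 or KO 3 and 2 without KO 2, and quality weights gave 5 lower. Rnf31 encodes HOIP, the catalytic subunit of the linear ubiquitin ligase that sustains TNFR1 signalling. Its CPM values were 92.9, 90.4 and 84.1 in WT 1 to WT 3, and of 37.9, 43.1 and 37.1 in KO 1 to KO 3, with little spread in either group (log2 ratio -1.18 ± 0.21 SE, adjusted p = 0.094). The TNFR1 adaptor gene Tradd was at -2.03, the apoptotic protease gene Casp8 at -1.43 and the ubiquitin ligase gene Birc2 at 1.45. Of the 5 NF-kB subunit genes 0 had an unadjusted p under 0.05 by edgeR, and Rela was nearest at 0.63 (1 gene was higher without WT 1). Of 13 inhibitor and feedback genes 1 was higher and 1 lower at that level (median 0.32). The higher count was 0 without WT 2, WT 3 or KO 3 and 2 without WT 1 or KO 1, and the lower count 0 without WT 1, WT 3 or KO 1. Nfkbia, which encodes IkB alpha, had CPM values of 335.4, 101.9 and 141.5 in WT 1 to WT 3, and of 340.0, 250.6 and 2130 in KO 1 to KO 3. Like Tnfaip3, it was highest in KO 3. Zc3h12a, the gene of the RNase regnase-1, was lower without overlap at -0.70. Of 4 TNF shedding genes 0 had an unadjusted p under 0.05 by edgeR, and the convertase gene Adam17 was at -0.072.

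All tested genes of a chosen list of genes known to respond to TNF had positive log2 ratios, while Tnf overlapped between the labels. All 14 tested genes of this list of 15 were positive (median 2.66, against 0.061 for all genes), and 8 were higher at an unadjusted p under 0.05, against 11.8% of all genes. Of the 14, 6 were higher without overlap, against 15.0% of all genes, and the smallest log2 ratio was 0.071. The 13 NF-kB inhibitor and feedback genes above, a separate list, were 9 positive and 4 negative. The count of 8 varied with the libraries kept: it was 2 without KO 3, 2 without WT 3, 5 without WT 2 and 12 without WT 1. It was 3 with no filter on low counts. Over all genes the higher count, 1992 with every library, was 1463 without KO 3, 1186 without WT 3, 977 without WT 2 and 1657 without WT 1. None passed the adjusted threshold. Sod2, the mitochondrial superoxide dismutase gene, had CPM values of 253.7, 111.8 and 127.1 in WT 1 to WT 3, and of 472.6, 379.1 and 1234 in KO 1 to KO 3 (log2 ratio 2.08 ± 0.59 SE, adjusted p = 0.117). Ptgs2, the inducible cyclooxygenase gene, had CPM values of 104.9, 9.998 and 48.3 in WT 1 to WT 3, and of 242.7, 285.5 and 373.4 in KO 1 to KO 3 (2.47 ± 0.76 SE, adjusted p = 0.131). Ier3 was at 2.85 and the neutrophil chemokine gene Cxcl1 at 4.08. The list was chosen with earlier results of these data known, so its shared direction is not independent of them. These genes also respond to other cytokines. Neutrophil markers were higher as well, with all 7 positive, 6 without overlap and summed levels of 10.6 to 453.2 CPM under the wild-type label and 1245 to 7176 CPM under the knockout label. Their part in the list's values was not tested.

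Genes induced by RANKL did not share a direction. Of 11 osteoclast genes 8 were tested, 2 higher and 1 lower at an unadjusted p under 0.05 (median 0.37), and the lower count was 0 on leaving out any library but KO 2. Ctsk, the collagen-degrading protease gene, had CPM values of 17.4, 12.7 and 18.2 in WT 1 to WT 3, and of 39.3, 35.7 and 103.6 in KO 1 to KO 3, and the integrin gene Itgb3 was at 1.69 on the log2 scale. Acp5, the tartrate-resistant phosphatase gene, went the other way at -1.18, and Calcr, Oscar and Dcstamp were below the filter. Of 9 M cell genes 1 was higher and 1 lower (median -0.15), with 0 higher without WT 2 or WT 3, 3 higher without WT 1 and 2 lower without KO 2. Esrrg was at -3.20 and Anxa5 at 0.93. The M cell master regulator gene Spib, named after its values were seen, was at -0.35 ± 0.54 (SE). Of 9 lymphotoxin and lymphoid tissue genes 8 were tested, 2 higher and 1 lower (median 0.39). The higher count was 0 without KO 3 and 1 without KO 1 or any of the wild-type libraries. Cxcl13, the B cell follicle chemokine gene, had CPM values of 145.5, 13.8 and 64.4 in WT 1 to WT 3, and of 266.5, 182.9 and 449.2 in KO 1 to KO 3 (2.01 ± 0.79 SE, adjusted p = 0.185). The vascular addressin gene Madcam1 was at 1.59.

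**Figure D4:**
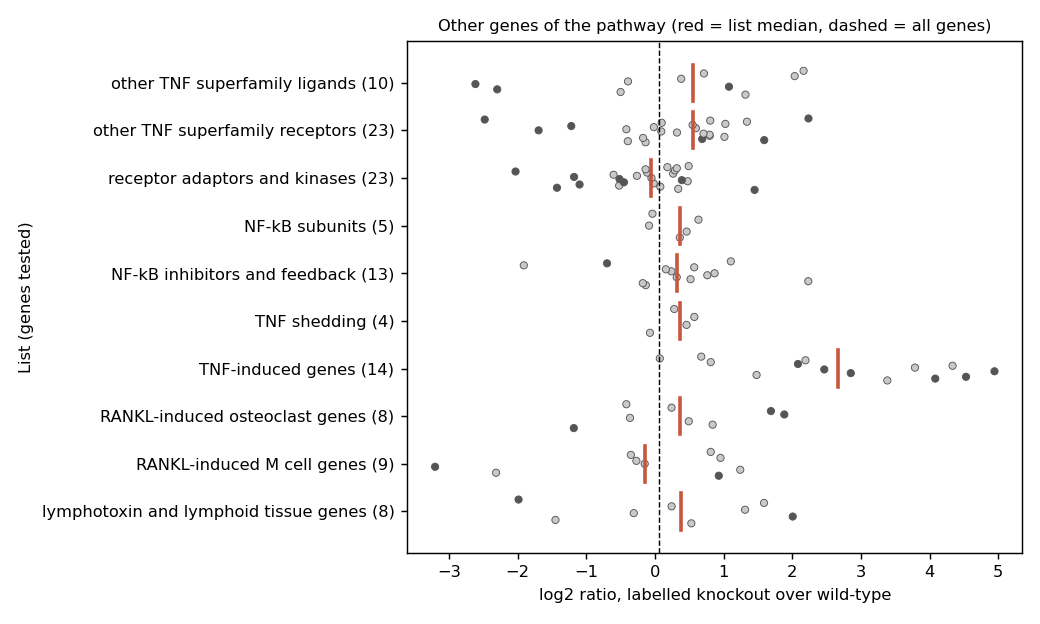
Log2 ratio of the libraries labelled knockout over wild-type for each tested gene of the 10 lists (number tested in brackets), with dark points for genes whose libraries do not overlap between the labels. Red marks are list medians and the dashed line is the median of all genes tested at 0.061. The list of TNF-induced genes has its median at 2.66, and the others lie between -0.15 and 0.55.

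Genes with the most similar profile over the 6 libraries were sought for each member as the smallest root mean square difference of log2 CPM, each gene centred on its own mean. For Tnfsf11 they were Adamts1 (0.355), Nlrp12 (0.37) and Serpina3i (0.382), against a spread of 1.95 for Tnfsf11 itself. Adamts1, a matrix protease gene, had CPM values of 96.2, 17.7 and 81.5 in WT 1 to WT 3, and of 609.8, 169.2 and 566.8 in KO 1 to KO 3. For Tnfrsf11a they were Mecom (0.155), Serhl (0.16) and Plekha8 (0.167), against a spread of 1.10. The zinc finger gene Mecom had CPM values of 35.8, 80.8 and 61.7 in WT 1 to WT 3, and of 9.19, 9.32 and 16.9 in KO 1 to KO 3. Tnfrsf11b was followed most closely by Irak3 (0.147), the gene of a brake on Toll-like receptor signalling, and Tnfsf15 by Slc5a3 (0.186). The gene nearest to Tnfaip3 was Nfkbiz (0.152), itself an NF-kB regulator from the feedback list. Its CPM values were 154.8, 72.2 and 124.9 in WT 1 to WT 3, and 140.4, 111.4 and 390.7 in KO 1 to KO 3, so it too was highest in KO 3. Tnf was nearest to Ppef1 (0.209), Lta to Arhgap4 (0.162), Ltb to Nlrc3 (0.102), Tnfrsf1a to Arhgef15 (0.0624) and Tnfrsf1b to St8sia1 (0.111). These distances describe 6 libraries and were taken as the smallest among the protein-coding genes tested.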

How the data were processed

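The authors deposited raw counts per gene for 6 libraries. Per the labels' protocols, adaptor, poly-N and poor-quality reads had been removed first. The submitters' processing notes name, without roles, featureCounts 1.5.0-p3, HISAT2 2.0.5, StringTie 1.3.3b and DESeq2, and the builds GRCm38 and mm10. For the annotation release and strand setting, nothing is given in the sources used here. The gene length in the deposited table was used for TPM. All 10 members had the coordinates of GENCODE M21. Of genes overlapping a member, the table held Mir6974 in Lta and Mir6973a in Ltb, with 0 to 3 reads.

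The counts were fitted with edgeR 4.0.16 under R 4.3.3: filterByExpr (minimum count 10, minimum total 15), TMM scaling and the robust quasi-likelihood F test, 3 against 3, over 16861 genes with Benjamini-Hochberg adjustment and a threshold of 0.05. All adjusted p-values are from this test unless another tool is named. CPM uses TMM-scaled totals. Ratios of 2 genes use a prior of 0.5 read and a two-sided exact permutation test (scipy 1.17.1). Alternatives were RLE and upper-quartile scaling, 2 other filters, each library left out, a replicate block, the fit without the robust option, DESeq2 1.42.0, limma-voom 3.58.1 with and without quality weights and a prior of 2 reads. Libraries of a group differed by far more than sampling noise (chi-square per degree of freedom 50.7 to 253.4), so each was counted.

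Members, lists and rules were chosen with earlier results of these data known. Named genes were the 10 members, Itgbl1, up to 4 genes of each list with the smallest p, and the 3 genes most like each member. A result for 1 gene of these lists is not reported here. Promoter motifs were chosen after the sequences were seen.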

Additional observations from a re-analysis of the deposited data

How the results depend on the processing

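Of 148 values of the 10 members under the alternatives, 136 kept their direction and side of the threshold, 8 passed it as given above, and 4 changed sign. The sign changes were Tnf at 0.24, Lta at 0.15 and Ltb at 0.014 without WT 1 and Tnfaip3 at -0.036 without KO 3. Itgbl1 was at 0.60 without WT 1, at 0.13 without KO 2 and at 0.33 with quality weights. Leaving out single libraries gave -1.44 to 0.24 for Tnf, -0.90 to 0.15 for Lta, -0.59 to 0.014 for Ltb, -0.036 to 1.08 for Tnfaip3 and -0.57 to 0.60 for Itgbl1. No member changed sign with RLE or upper-quartile scaling, and the latter moved the median of all genes by 0.14.

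Genes with an adjusted p under 0.05, 0 with edgeR, numbered 192 with no filter (1 member), 2029 with DESeq2 (3 members), 1395 with quality weights (2 members) and 3 with a replicate block (0 members). Leaving out single libraries gave 0 to 1813 genes and 0 to 2 members, in both cases the highest without KO 2. At an unadjusted p under 0.05, leaving out single libraries gave 977 to 2417 higher and 1350 to 3044 lower genes. Members then numbered 1 to 2 higher and 2 to 3 lower, with 3 lower without WT 2. Genes without overlap, with single libraries left out, numbered 2921 to 4129 higher and 3421 to 4711 lower, and members 2 to 4 higher and 2 to 3 lower. With at least 10 reads in every library Tnfsf11 and Tnfsf15 were not tested. That left 1 higher and 1 lower member by either rule, at an unadjusted p under 0.05 or without overlap.

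Same-numbered libraries did not deviate together (correlations across genes of -0.20, 0.087 and -0.075), and libraries of unlike number gave -0.17 to 0.34. With 3 libraries per label these values cannot exclude that the numbers pair the samples. With the replicate block the Tnfsf11 over Tnfrsf11b difference was 1.70 (exact sign-flip p = 0.25, the smallest for 3 pairs) and the Tnfrsf1b over Tnfrsf1a difference -1.01 (exact p = 0.5). Leaving out single libraries gave 1.05 to 2.10 and -1.28 to -0.62, where 2 against 3 cannot give an exact p below 0.2. Few reads lay behind Tnfsf15 (4 to 35 per library), Lta (10 to 50) and Tnfsf11 in WT 2 (9).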
